A study of Glycine max with 102 samples.

Results

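COL1a (Glyma.08G255200), COL1b (Glyma.18G278100), COL2a (Glyma.13G050300) and COL2b (Glyma.19G039000) are soybean genes of the CONSTANS-like group, and they were picked by these IDs. They are 4 of the 56044 gene IDs in the table, and their IDs place them on chromosomes 8, 18, 13 and 19. CONSTANS is a transcription factor with B-box zinc fingers and a CCT domain. In Arabidopsis its transcript follows the circadian clock, with GIGANTEA among its activators, and in long days the protein switches on the florigen gene FT in leaves. In soybean, a short-day plant, COL1a and COL1b are known as repressors of flowering in long days, while all 4 genes have been reported to restore flowering when placed in an Arabidopsis constans mutant. The LHY genes encode MYB repressors of the clock that peak around dawn, E2 is the soybean homologue of GIGANTEA, and FT2a is one of the soybean florigen genes.

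RNA came from leaves of Glycine max at vegetative stage V2, when plants were 18 days old, with 1 library for each of 102 accessions. The soyNAM parents (n = 41) are founders of a nested association mapping population and comprised 15 LG lines, 8 PI lines and 18 elite lines. LG lines come from breeding programmes and have mixed ancestry, and PI lines are plant introductions. The milestone cultivars (n = 61) are named cultivars and ancestral lines from the history of the crop. No group carried a treatment or a transgene, and the labels give no sowing or sampling date or hour, so that any batch and the collection cannot be told apart. Whether a library pooled plants is not given in the sources used here. The class of each soyNAM parent rests on the public family numbers of the population, and the column named Parent was taken as its common parent and put with the elite lines.

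The labelled tissue was checked first. The 4 leaf markers, genes of Rubisco and its activase, summed to between 4369 and 39487 FPKM in the 41 soyNAM libraries and between 9474 and 58626 FPKM in the 61 milestone libraries. Not all 4 carried this sum, because the Rubisco gene RbcS2 had a median of 0 FPKM in both collections. The markers RbcS1, RCA1 and RCA2 had medians of 16832, 4768.51 and 6794.38 FPKM in soyNAM parents. In milestone cultivars their medians were 20039.9, 6443.73 and 7962.8 FPKM. The 3 nodule markers summed to at most 2.16 FPKM in the soyNAM libraries and 2.81 FPKM in the milestone libraries, and the 3 seed markers to at most 0.771 FPKM in the soyNAM libraries and 0.853 FPKM in the milestone libraries. Depth per library is unknown, because FPKM keeps no read counts. Some soyNAM libraries stood apart in transcripts of the clock. Parent and NAM10 had almost no LHY transcript, and NAM31, NAM11 and NAM06 had LHY2b at levels in between. These 5 had the lowest median Spearman correlations with the other libraries, from 0.662 to 0.773, against 0.826 or more in the rest. NAM29 and NAM48 also had LHY2b at levels in between. These libraries were also low in COL1a and COL1b, and results are given with and without them.

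COL1a and COL1b were abundant leaf transcripts and COL2a and COL2b were close to the bottom of the scale. COL1a had its lowest value of 4.72, a median of 100.2 and its highest value of 165 FPKM in soyNAM parents, against 14.2, 44.3 and 75.7 FPKM in milestone cultivars. COL1b had 2.77, 152 and 243 FPKM in soyNAM parents, against 24.9, 68.6 and 112 FPKM in milestone cultivars. Within a library, COL1a stood at a median percentile of 98.4 of all gene IDs in soyNAM parents and 95.9 in milestone cultivars, while COL1b stood at 99.0 in soyNAM parents and 97.5 in milestone cultivars. COL2a had a median of 0.123 and a highest value of 1.76 FPKM in soyNAM parents, where it was listed at 0 in 2 libraries. In milestone cultivars COL2a had a median of 0 and a highest value of 0.238 FPKM, and was listed at 0 in 34 of 61 libraries. COL2b had a median of 0.108 and a highest value of 2.58 FPKM in soyNAM parents, with no library at 0. In milestone cultivars COL2b had a median of 0.0424 and a highest value of 0.246 FPKM, with 20 libraries listed at 0. A value of 0 can be a failed estimate. Of all 102 libraries, only Parent and NAM10 reached 1 FPKM for either COL2 gene. In bulk leaf RNA, fewer cells of a type and less RNA per cell cannot be told apart.

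**Figure D1:**
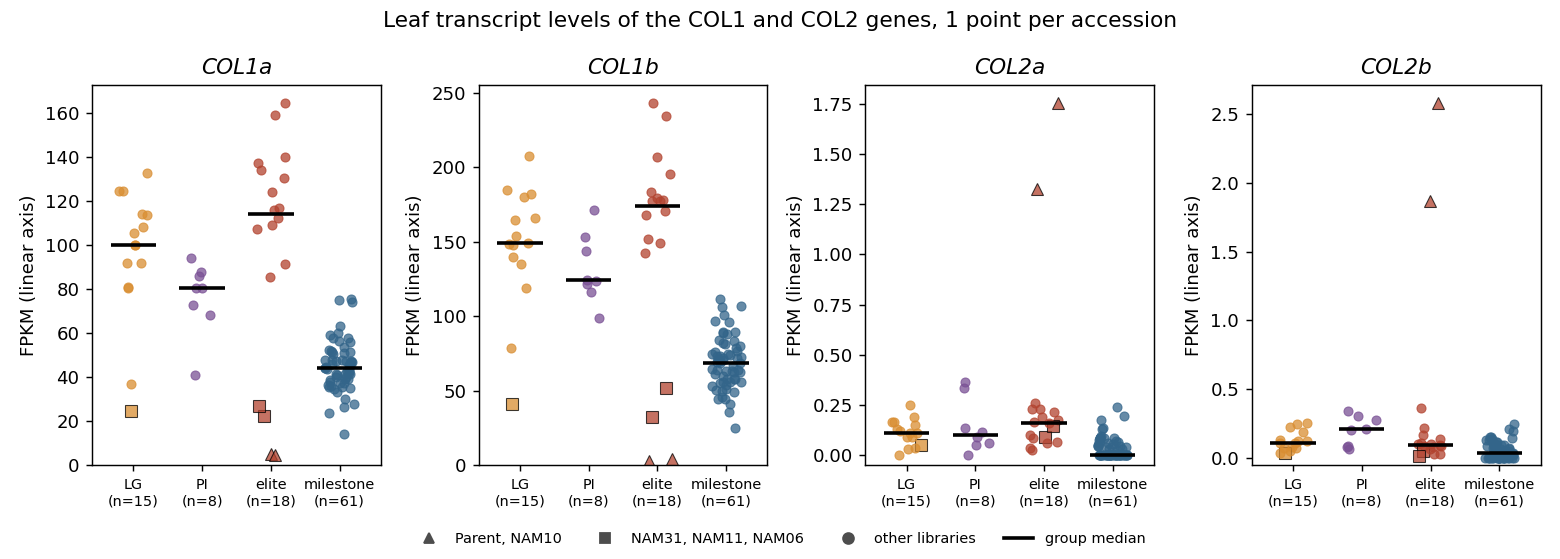
FPKM of COL1a, COL1b, COL2a and COL2b on linear axes, 1 point per accession, in LG, PI and elite lines of soyNAM and in milestone cultivars, with horizontal bars at group medians. COL1a and COL1b are higher in most soyNAM parents than in any milestone cultivar, while Parent and NAM10 (triangles) are the lowest of all libraries for COL1a and COL1b and the highest for COL2a and COL2b.

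COL1a and COL1b were higher in soyNAM parents than in milestone cultivars, by about the same amount. For COL1a, 32 of 41 soyNAM parents (78.0%) lay above the highest milestone cultivar, and for COL1b 34 of 41 (82.9%) did. No milestone cultivar reached the soyNAM median of either gene, and the 2 soyNAM libraries below the lowest milestone cultivar were Parent and NAM10. The median was 2.26 times as high in soyNAM parents for COL1a and 2.21 times as high for COL1b. COL1a averaged 93.4 ± 39.3 FPKM in soyNAM parents, against 45.1 ± 11.3 FPKM in milestone cultivars (SD, n = 41 and 61). COL1b averaged 144 ± 55.3 FPKM in soyNAM parents, against 68.7 ± 17.7 FPKM in milestone cultivars. On the log2(FPKM + 1) scale COL1a differed by 0.83 (SE 0.149, 95% interval 0.54 to 1.13, limma with Benjamini-Hochberg adjusted p = 4.7e-07). COL1b differed by 0.83 as well (SE 0.169, 95% interval 0.50 to 1.17, limma adjusted p = 6.67e-06). Among the 30101 genes tested 74.8% were called in this comparison, so that a call alone says little about these genes. Their log2 differences stood at percentile 94.9 of all genes tested.

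The difference between the collections was larger without the libraries that stand apart. Without Parent and NAM10 it was 1.02 for COL1a and 1.08 for COL1b on the log2(FPKM + 1) scale. Without NAM31, NAM11 and NAM06 as well it was 1.17 for COL1a and 1.22 for COL1b, and 77.4% of genes were called. Low COL1a and COL1b values marked these libraries too, so that leaving them out could only raise the soyNAM mean. The lowest milestone library, number 60, had 14.2 FPKM of COL1a and 24.9 FPKM of COL1b, and the differences without it were 0.81 for both genes.

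COL2a and COL2b did not pass the filter of a mean of 1 FPKM, so that 2 of the 4 genes entered the comparison above. In a fit with no filter, where 55.4% of 52945 genes were called, both were called as higher in soyNAM parents. The difference was 0.18 for COL2a (SE 0.0368, limma adjusted p = 9.86e-06) and 0.17 for COL2b (SE 0.0458, limma adjusted p = 0.000777) on the log2(FPKM + 1) scale, which understates changes at such levels. With a pseudocount of 0.1 in place of 1 FPKM the differences were 0.90 for COL2a and 0.73 for COL2b. Without Parent and NAM10 they were 0.12 for COL2a and 0.10 for COL2b, and both were still called, as were 56.1% of genes. The groups overlapped: 6 of 41 soyNAM parents lay above the highest milestone cultivar for COL2a and 8 of 41 for COL2b, and 5 and 13 milestone cultivars lay above the soyNAM medians of COL2a and COL2b.

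Within soyNAM the medians of COL1a and COL1b were lower in LG and PI lines than in elite lines. COL1a had its lowest value of 24.8, a median of 100.3 and its highest value of 133 FPKM in LG lines, 41.2, 80.6 and 94.3 FPKM in PI lines, and 4.72, 114 and 165 FPKM in elite lines. COL1b had 41.3, 149 and 207 FPKM in LG lines, 98.98, 124 and 171 FPKM in PI lines, and 2.77, 174 and 243 FPKM in elite lines. The highest PI line for both genes was NAM41, at 94.3 and 171 FPKM, and the lowest was NAM48. All 3 classes overlapped.

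The order of the medians was not matched by a called difference when all libraries were kept. LG lines differed from elite lines by 0.28 for COL1a (95% interval -0.23 to 0.79, limma adjusted p = 0.829) and by 0.45 for COL1b (95% interval -0.13 to 1.03, limma adjusted p = 0.725) on the log2(FPKM + 1) scale. Of 30101 genes, 0.0266% were called between these classes. PI lines differed from elite lines by 0.04 for COL1a (95% interval -0.59 to 0.66, limma adjusted p = 0.967) and by 0.36 for COL1b (95% interval -0.34 to 1.07, limma adjusted p = 0.624), where 3.45% of genes were called. These differences of mean logs were above 0 while the medians of LG and PI lines were below the elite median. In 4 elite libraries, Parent, NAM10, NAM11 and NAM06, both genes lay below all LG lines but 1 or below all of them. A rank-sum test did not call either gene, with adjusted p = 0.811 and 0.856 for COL1a and COL1b in LG lines and 0.230 and 0.312 in PI lines.

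Without the 5 libraries that stand apart, 14 LG, 8 PI and 14 elite lines were left and the sign turned. PI lines then differed from elite lines by -0.70 for COL1a (SE 0.166, limma adjusted p = 0.00276) and by -0.47 for COL1b (SE 0.156, limma adjusted p = 0.0349), with 11.7% of genes called. Without NAM29 and NAM48 too, the values were -0.58 for COL1a (limma adjusted p = 0.0115) and -0.41 for COL1b (limma adjusted p = 0.0831), with 8.28% of genes called. Without Parent and NAM10 alone they were -0.42 (limma adjusted p = 0.307) and -0.21 (limma adjusted p = 0.649) for COL1a and COL1b. LG lines differed from elite lines by -0.33 for COL1a and -0.26 for COL1b without the 5 libraries, and neither was called (limma adjusted p = 0.353 and 0.477, with 0.362% of genes called). Because the libraries left out were the lowest elite libraries in COL1a and COL1b, leaving them out sets part of this difference.

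Elite lines alone were also above milestone cultivars. The difference was 0.72 for COL1a (SE 0.199, limma adjusted p = 0.000887) and 0.60 for COL1b (SE 0.223, limma adjusted p = 0.0145) on the log2(FPKM + 1) scale, with 68.7% of genes called. Without the 5 libraries the values were 1.46 for COL1a and 1.43 for COL1b, with 70.9% of genes called. COL2a and COL2b differed by 0.27 and 0.24 in the fit with no filter, which called 49.9% of genes and both of these. Part of this lay in the elite libraries that stand apart. Elite means were 0.296 FPKM for COL2a and 0.345 FPKM for COL2b, and 0.143 and 0.122 FPKM without those libraries. Milestone means were 0.0355 and 0.0590 FPKM.

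**Figure D2:**
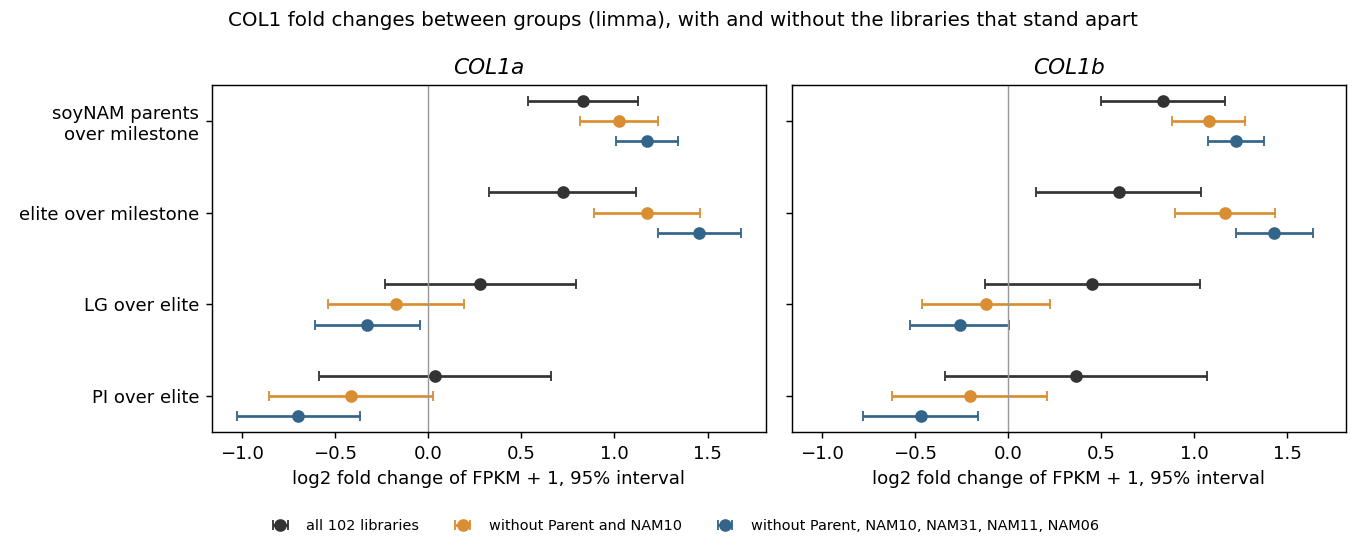
Log2 fold changes of FPKM + 1 for COL1a and COL1b in 4 comparisons, with 95% intervals from limma, using all 102 libraries (black), without Parent and NAM10 (orange) and without the 5 libraries that stand apart (blue). The soyNAM parents and their elite lines stay above milestone cultivars in each setting, whereas PI over elite changes from 0.04 to -0.70 for COL1a and from 0.36 to -0.47 for COL1b.

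COL2a had the same order of medians among the classes, near 0, and COL2b did not. COL2a had a median of 0.110 FPKM in LG lines, 0.103 FPKM in PI lines and 0.163 FPKM in elite lines. COL2b had a median of 0.113 FPKM in LG lines, 0.211 FPKM in PI lines and 0.1002 FPKM in elite lines. The highest LG values were 0.251 FPKM for COL2a and 0.253 FPKM for COL2b, and the highest PI values were 0.367 and 0.341 FPKM. With no filter, neither gene was called between LG and elite lines (0.0264% of genes called) or between PI and elite lines (1.55% of genes called).

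Parent and NAM10 had the COL genes in an order seen in no other library. Parent had 4.72 FPKM of COL1a, 2.77 of COL1b, 1.33 of COL2a and 1.87 of COL2b. NAM10 had 5.28 FPKM of COL1a, 3.94 of COL1b, 1.76 of COL2a and 2.58 of COL2b. Over the 14 elite lines outside the libraries that stand apart, the lowest, median and highest values were 85.5, 121 and 165 FPKM for COL1a and 142, 177 and 243 FPKM for COL1b. The median of these 14 lines was 25.5 times the Parent value and 22.8 times the NAM10 value for COL1a, and 64.1 and 44.98 times for COL1b. COL2a in these 14 lines had a median of 0.163 and a highest value of 0.259 FPKM, so that Parent stood 8.15 times and NAM10 10.8 times above the median. COL2b had a median of 0.1002 and a highest value of 0.366 FPKM in these lines, and Parent stood 18.6 times and NAM10 25.7 times above that median. Thus COL1a and COL1b were the lowest, and COL2a and COL2b the highest, of all 102 libraries in these 2. Each is a single library, and no test is given.

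Summed over copies, COL2a and COL2b came to 42.6% of COL1a and COL1b in Parent and 46.98% in NAM10. The median of that share was 0.103% in soyNAM parents and 0.0753% in milestone cultivars, and the highest share outside Parent and NAM10 was 0.285% in soyNAM and 0.565% among milestone cultivars. The same libraries had 94.5 and 94.7 FPKM of E2, against a median of 35.6 FPKM in the 14 elite lines. J, a homologue of ELF3 that acts in the evening, had 47.5 FPKM in Parent and 53.6 in NAM10, against 5.39 in the 14 lines, and LUX2, a homologue of the evening gene LUX, had 45.5 and 55.9 FPKM against 3.14. LHY2b had 0.196 and 0.239 FPKM against 260.4, and FT2a 0.0332 and 0.286 FPKM against 6.29. Summed FPKM was 459817 in Parent and 519785 in NAM10, and ran up to 864712 over all libraries. The part of library composition in these values was not tested.

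NAM31, NAM11 and NAM06 shared the low COL1a and COL1b but not the high COL2a and COL2b. COL1a had 24.8 FPKM in NAM31, 26.99 in NAM11 and 22.3 in NAM06, and COL1b had 41.3, 51.95 and 32.2 FPKM in the same libraries. COL2a had 0.0496, 0.146 and 0.0915 FPKM in NAM31, NAM11 and NAM06, and COL2b had 0.0418, 0.0172 and 0.0525 FPKM. FT2a was present at 5.12, 7.82 and 5.98 FPKM in these 3 libraries, near the soyNAM median of 5.98 FPKM. NAM29 and NAM48 had 36.7 and 41.2 FPKM of COL1a, 78.6 and 98.98 FPKM of COL1b, and 2.66 and 2.49 FPKM of FT2a.

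FPKM is per transcript length, so levels of the genes could be set against each other within a library. COL1b was above COL1a in 15 of 15 LG lines, 8 of 8 PI lines, 16 of 18 elite lines and 61 of 61 milestone cultivars. The adjusted p of a sign-flip permutation test was 0.00064 in elite lines, 0.000216 in LG lines and 4e-05 in milestone cultivars, and 0.0117 in the exact test for the 8 PI lines, over 12 such pairs. The exceptions among elite lines were Parent and NAM10. COL1a was above both COL2 genes in every library. COL2a and COL2b were not separated in elite, LG or PI lines (permutation adjusted p = 0.923, 0.654 and, exact, 0.244). In milestone cultivars COL2b was above COL2a in 29 libraries and below it in 18 (permutation adjusted p = 0.0125), at levels near 0.

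The COL1a to COL1b ratio had a median of 0.661 in soyNAM parents and 0.648 in milestone cultivars, and ranged from 0.416 to 1.71 in soyNAM parents and from 0.484 to 0.937 in milestone cultivars. Values above 1 occurred only in Parent and NAM10. The mean log2 ratio differed by -0.0004 between the collections, where accessions spread by an SD of 0.31 in soyNAM and 0.19 among milestone cultivars (permutation adjusted p = 0.994 over 3 ratios). Without Parent and NAM10 the difference was -0.06, with an SD of 0.19 in each collection (permutation adjusted p = 0.207), and without the 5 libraries it was -0.05 (permutation adjusted p = 0.321). By class, the median ratio was 0.658 in LG, 0.582 in PI and 0.678 in elite lines. PI lines alone were below milestone cultivars by -0.20 in mean log2 ratio (n = 8 and 61, permutation adjusted p = 0.0114). The lowest PI ratio, 0.416, was that of NAM48, and this comparison was not run without it. The copies could share reads, and the part of this in the ratio was not tested.

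COL1a and COL1b varied together in both collections. Their Spearman coefficient was 0.92 in soyNAM parents and 0.83 in milestone cultivars, and Pearson's r of the log2 values 0.98 and 0.88. Both Spearman coefficients had an adjusted p of 9e-05 over a family of 36 relations, from a raw permutation p of 1e-05, the smallest the permutations can give. Without the 2 libraries farthest from the median, r was 0.97 in soyNAM parents and 0.83 in milestone cultivars. COL2a and COL2b had a Spearman coefficient of 0.46 in soyNAM parents (permutation p = 0.00291, adjusted p = 0.015) and 0.17 in milestone cultivars (adjusted p = 0.547). Without Parent and NAM10 the soyNAM Spearman coefficient of COL2a and COL2b was 0.37 (adjusted p = 0.0896). COL1 and COL2 genes were not correlated by rank in either collection, with Spearman coefficients between -0.09 and 0.05 in soyNAM parents and between -0.24 and -0.07 in milestone cultivars. By Pearson's r they appeared opposed in soyNAM parents, between -0.68 and -0.79, but without Parent and NAM10 r lay between 0.18 and 0.28. In milestone cultivars r with COL2b was -0.31 for COL1a and -0.33 for COL1b (adjusted p = 0.0227 and 0.016), and -0.18 and -0.21 without the 2 libraries farthest from the median, where neither passed.

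COL1a and COL1b were closely correlated with the clock gene LHY2b in soyNAM parents. The Spearman coefficient was 0.91 for COL1a (r = 0.97) and 0.86 for COL1b (r = 0.98), each with an adjusted p of 9e-05 for the Spearman coefficient and 7.2e-05 for r. The soyNAM libraries fell into separate groups on LHY2b, with Parent and NAM10 below 1 FPKM and NAM31, NAM11, NAM06, NAM29 and NAM48 between 36.4 and 53.97 FPKM. Over the other 34 libraries the Spearman coefficient was 0.84 for COL1a (r = 0.85) and 0.76 for COL1b (r = 0.78), both with adjusted p = 9e-05. Within the classes, with adjustment over 18 relations each, the relation held in elite lines at a Spearman coefficient of 0.84 for COL1a and 0.71 for COL1b (permutation adjusted p = 0.00036 and 0.0078), and in LG lines at 0.66 and 0.80 (permutation adjusted p = 0.0474 and 0.00486). In the 8 PI lines the Spearman coefficient was 0.86 and 0.76, short of the threshold in the exact permutation test (adjusted p = 0.0964 and 0.165).

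In milestone cultivars the relation with LHY2b was weaker or not detected. The Spearman coefficient was 0.34 for COL1a (r = 0.34, permutation p = 0.0085, adjusted p = 0.034) and 0.09 for COL1b (r = 0.05, adjusted p = 0.746). Without library 60 the Spearman coefficient of COL1a was 0.31 (adjusted p = 0.080). LHY2b itself ran from 150 to 531 FPKM in milestone cultivars, against 0.196 to 326 FPKM in all 41 soyNAM parents. Over the 34 soyNAM libraries without the 5, NAM29 and NAM48, it ran from 127 to 326 FPKM. The difference between the collections in these correlations was not tested. Between collections the levels went opposite ways: LHY2b was lower in soyNAM parents, at a median of 215 FPKM against 333 FPKM in milestone cultivars, and COL1a and COL1b were higher.

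**Figure D3:**
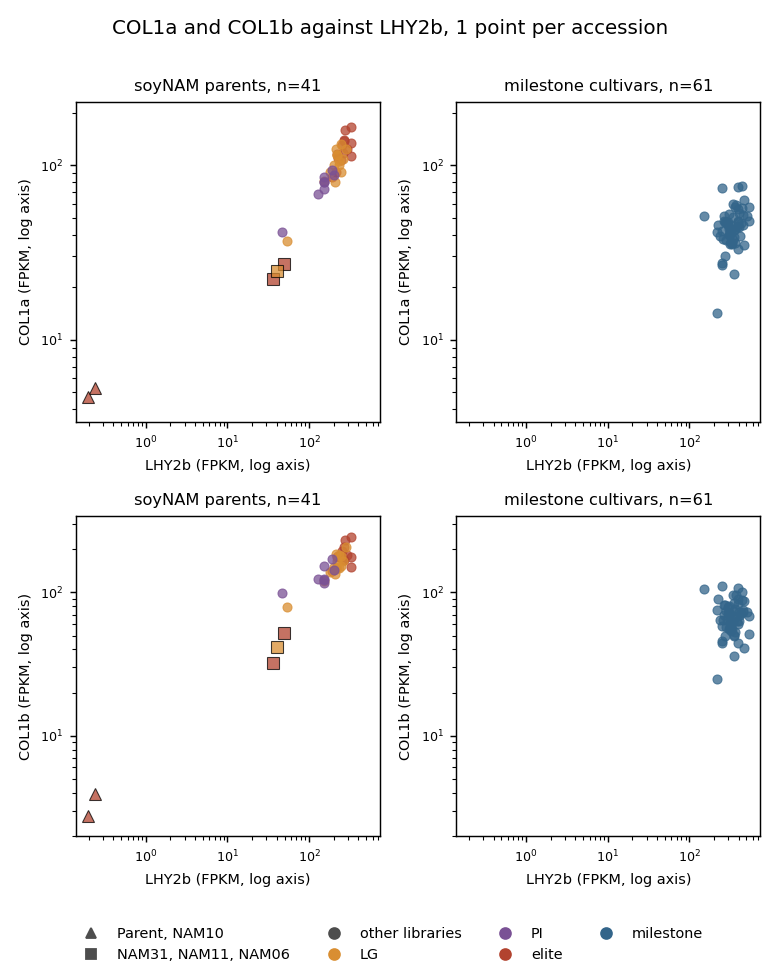
COL1a (top) and COL1b (bottom) against LHY2b in soyNAM parents (left, n = 41) and milestone cultivars (right, n = 61), FPKM on log axes that are shared within a row, 1 point per accession. In soyNAM, Parent and NAM10 lie apart from the other points at the lower end, with LHY2b at 0.196 and 0.239 FPKM. All other soyNAM libraries have at least 36.4 FPKM of LHY2b. In milestone cultivars the Spearman coefficient is 0.34 for COL1a and 0.09 for COL1b.

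E2, whose Arabidopsis homologue acts upstream of CONSTANS, showed no rank correlation with COL1a or COL1b. The Spearman coefficient with E2 was -0.10 for COL1a and -0.11 for COL1b in soyNAM parents, and also -0.10 and -0.11 in milestone cultivars (permutation adjusted p = 0.746 in each case). In soyNAM parents Pearson's r was -0.60 for both genes (adjusted p = 0.0006), but this rests on Parent and NAM10, without which r was -0.26 for COL1a and -0.21 for COL1b. Over the 34 libraries outside all 7 named ones, the sign was the other way, with Spearman coefficients at 0.47 for COL1a (r = 0.58, adjusted p = 0.0302) and 0.45 for COL1b (r = 0.65, adjusted p = 0.034). Those 7 were chosen after values had been seen. They were low in COL1a and COL1b, and each lay above the soyNAM median of E2. Leaving them out can therefore set part of these coefficients. COL2a and COL2b had Spearman coefficients with E2 of 0.08 and 0.13 in soyNAM parents and -0.10 and 0.15 in milestone cultivars, none past the threshold. E2 was higher in soyNAM parents, at a median of 37.6 FPKM against 19.4 FPKM in milestone cultivars.

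FT2a was positively correlated with COL1a and COL1b across soyNAM parents. The Spearman coefficient was 0.58 for COL1a (r = 0.66, permutation p = 1e-04, adjusted p = 0.00072) and 0.50 for COL1b (r = 0.66, permutation p = 0.00112, adjusted p = 0.00672). Without the 2 libraries farthest from the median, Parent and NAM10, r was 0.32 for COL1a and 0.24 for COL1b and no longer passed (adjusted p = 0.219 and 0.355), while the Spearman coefficient was 0.51 and 0.42 and still did (adjusted p = 0.0077 and 0.0361). Over the 34 libraries the Spearman coefficient was 0.52 for COL1a (adjusted p = 0.015) and 0.39 for COL1b (adjusted p = 0.0807). By class, the Spearman coefficient of COL1a with FT2a was 0.70 in elite, 0.65 in LG and 0.31 in PI lines, and passed the threshold in elite lines (permutation adjusted p = 0.00787).

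In milestone cultivars, where FT2a had a median of 0.157 FPKM and was listed at 0 in 20 of 61 libraries, the Spearman coefficient with FT2a was 0.13 for COL1a and 0.07 for COL1b (adjusted p = 0.696 and 0.746). COL2b and FT2a had a Spearman coefficient of -0.37 there (r = -0.34, permutation p = 0.00346, adjusted p = 0.0156), and r was -0.35 without the 2 libraries farthest from the median. Both genes were listed at 0 in 20 milestone libraries each, and such sparse values make this a weak description. In soyNAM parents COL2b and FT2a had a Spearman coefficient of -0.28 (adjusted p = 0.270).

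**Figure D4:**
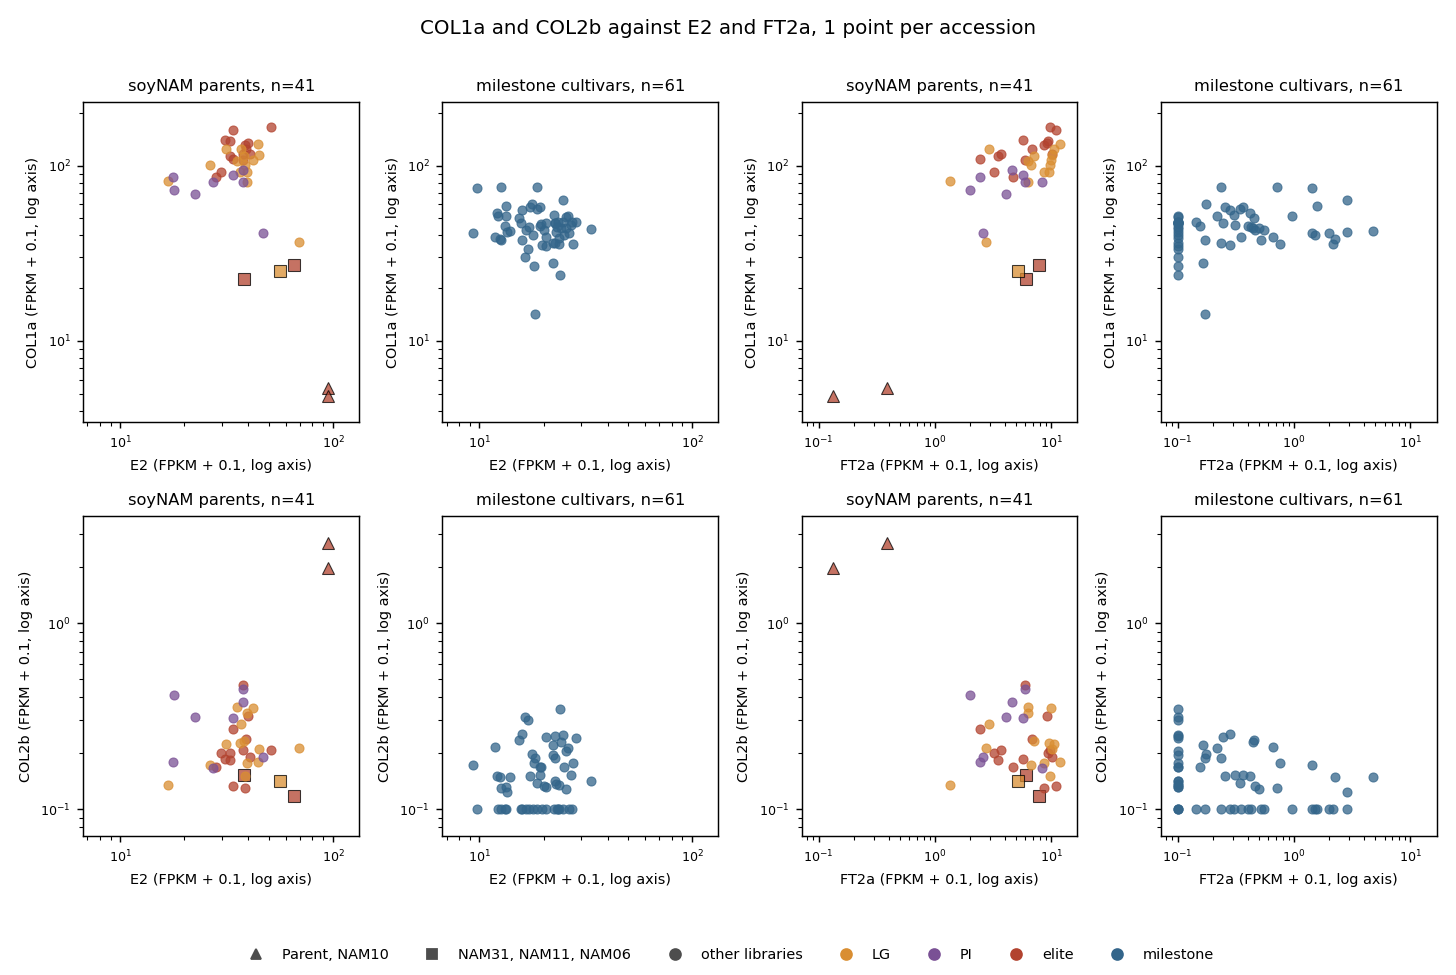
COL1a (top) and COL2b (bottom) against E2 and FT2a, as FPKM + 0.1 on log axes, in soyNAM parents and milestone cultivars, 1 point per accession. COL1a has a Spearman coefficient of 0.58 with FT2a and of -0.10 with E2 in soyNAM parents; Parent and NAM10 (triangles) lie far from all other points in each soyNAM panel, and points at 0.1 are values listed at 0.

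In Pearson's r, COL2a and COL2b appeared strongly opposed to LHY2b in soyNAM parents, at -0.77 and -0.80 (adjusted p = 0.00277 each). Ranks gave 0.07 and -0.02, and without Parent and NAM10 r of COL2b with LHY2b was 0.24. Of the 18 relations in soyNAM parents, 18 passed by r and 6 by rank, and in milestone cultivars 5 of 18 passed by r and 3 by rank.

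Other genes of the pathway were set beside the COL genes in a second family of 120 relations, chosen after values had been seen. COL1a and COL1b followed LHY1a in soyNAM parents with a Spearman coefficient of 0.88 each (r = 0.95 and 0.98), and 0.82 each without the 5 libraries. Without the 2 libraries farthest from the median of the LHY1a values, r was 0.96 for COL1a and 0.94 for COL1b. They also followed Dt2, a MADS-box gene of stem termination, with a Spearman coefficient of 0.82 for COL1a and 0.74 for COL1b in soyNAM parents, and 0.46 and 0.36 in milestone cultivars (adjusted p = 0.001 and 0.0185). Without the 2 libraries farthest from the median, r with Dt2 was 0.69 for COL1a and 0.60 for COL1b in soyNAM parents, and 0.56 and 0.48 in milestone cultivars. For the pseudo-response regulator PRR3b, the Spearman coefficient in soyNAM parents was 0.69 for COL1a and 0.66 for COL1b, and for E4, a phytochrome A gene, it was 0.47 each. The soyNAM E4 values were 0.22 each without the 5 libraries and no longer passed. In milestone cultivars the Spearman coefficients of COL1a and COL1b were 0.36 and 0.29 with E4. They were 0.41 and 0.19 with LHY1a, and 0.22 and 0.04 with PRR3b. COL2b had a Spearman coefficient of -0.49 with the florigen gene FT5a in milestone cultivars (r = -0.43, adjusted p = 0.000847), where FT5a was listed at 0 in 23 libraries.

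COL1a and COL1b also moved with the summed FPKM of the library. The Spearman coefficient was 0.71 for COL1a and 0.64 for COL1b in soyNAM parents (adjusted p = 9.23e-05 and 0.000343), and 0.53 and 0.47 in milestone cultivars (adjusted p = 0.0004 and 0.00101). Without the 5 libraries the soyNAM Spearman coefficients were 0.57 and 0.47. Pearson's r was 0.89 and 0.84 in soyNAM parents, and 0.85 and 0.78 without the 2 libraries farthest from the median. In milestone cultivars r was 0.58 and 0.49, and 0.49 and 0.34 without the 2 farthest. The family of 36 relations was also run under median-of-ratios scaling and quantile normalization, and calls that changed are counted in the last section. The second family was not run so. Beyond that, the part of this library measure in the relations was not tested. With quantile normalization, which gives each library the same distribution, the difference between collections was 0.82 for COL1a and 0.80 for COL1b on the log2(FPKM + 1) scale.

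Of the 20 other flowering and clock genes on the list, 14 passed the filter. In soyNAM parents 6 of these were higher than in milestone cultivars, 6 were lower and 2 were not called, so that 12 of 14 were called beside 74.8% of all genes tested, at a median log2 difference of -0.03 against -0.00 over all genes tested. Those higher were E2 (0.95), J (0.87), LUX2 (1.47), E4 (0.51), FT2a (2.19) and FT5a (1.13). Those lower were LHY1a, LHY1b, LHY2a and LHY2b, between -0.40 and -1.24, the floral integrator SOC1a at -1.26 and Dt2 at -0.33. Without the 5 libraries 6 were higher and 4 lower, beside 77.4% of all genes called. The calls lost were those of LHY1a, at -0.05, and LHY1b, at -0.01 (limma adjusted p = 0.505 and 0.925), and a rank-sum test over all 102 libraries did not call LHY1a or LHY1b either (adjusted p = 0.317 and 0.399). Between LG and elite lines 0 of 14 were called, and 0 without the 5 libraries, where 0.0266% and 0.362% of all genes were. Between PI and elite lines 1 was called, FT5a at -1.26 (limma adjusted p = 0.000827), beside 3.45% of all genes. Without the 5 libraries 6 of 14 were called, all lower in PI lines, beside 11.7% of all genes. These libraries stood apart by low LHY transcripts, which are on the list, and 4 of them are elite lines. Leaving them out can therefore set part of this count. Between elite lines and milestone cultivars 6 were higher and 5 lower, beside 68.7% of all genes called, and without the 5 libraries 8 were higher and 2 lower, beside 70.9%. The same limit holds for these counts without the 5 libraries. Shares of 12 and 11 of 14 lie near those of all genes.

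The spread of COL1a and COL1b among accessions was moderate in milestone cultivars. The SD of log2 values was 0.38 for COL1a and 0.39 for COL1b, against a median of 0.28 over all genes tested, and 72.5% and 74.0% of genes had a lower SD. In soyNAM parents the SD was 1.09 for COL1a and 1.25 for COL1b, with 96.7% and 98.03% of genes below. Without the 5 libraries it was 0.45 and 0.33, with 86.3% and 73.1% of genes below, so that much of the soyNAM spread lay in those libraries.

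Over all genes past the filter, likeness was measured as the lower Spearman coefficient of the 2 collections. The gene most like COL1a was COL1b, and the reverse, at 0.83. Next came Glyma.02G237100 for COL1a, with a Spearman coefficient of 0.72 in soyNAM parents and 0.72 in milestone cultivars, and Glyma.17G003000 for COL1b, with 0.83 and 0.73. Of 30100 genes compared, LHY2b ranked 1910 for COL1a and 6364 for COL1b by this measure. FT2a ranked 6084 and 6765, and Dt2 573 and 977. For COL2a the closest were Glyma.06G107300 (0.31) and Glyma.10G102900 (0.29), and for COL2b Glyma.20G227000 (0.49) and Glyma.15G126400 (0.44). These coefficients are the highest of 30101 genes, for transcripts near 0, and no test is given for them. These IDs carry no name in the table, and values are descriptions over 41 and 61 libraries.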

How the data were processed

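Leaf RNA of 102 soybean accessions was sequenced from stranded TruSeq libraries after TRIzol extraction, per the labels. The authors deposited a table of FPKM for each gene ID. The submitters' processing notes name Trimmomatic (0.32), STAR (2.4.1c) and Cufflinks (2.2.1); the genome build, apart from a suffix on the IDs, and the use of strand in counting are not given in the sources used here. Read counts cannot be had from FPKM, and no counting interval is given. Each of the 102 columns was used and 0 columns were left unused. Numbered columns were taken as milestone cultivars, and Parent and the NAM columns as soyNAM parents. No column is tied to a named cultivar, and the classes follow public family numbers that the labels do not give. None of the IDs (0 of 56044) matched the RefSeq gene table, so COL names follow published assignments. The table, for Glycine_max_v4.0, uses the symbols COL2A (synonyms COL1a and CONSTANS) on chromosome 8 and COL2B on chromosome 18, so names differ between sources. The copies of a pair are close in sequence and could share reads.

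The genes and lists were chosen with earlier results of these data known. Tests used limma (version 3.58.1, R version 4.3.3) on log2(FPKM + 1), 2-sided, with moderated statistics and a mean trend, over the 30101 genes whose mean reached 1 FPKM. P-values were adjusted by the Benjamini-Hochberg method over all genes tested, at a threshold of 0.05. The collections were compared as 2 groups and the classes as contrasts of a model with 4 groups. With 1 library per accession, p-values measure differences against the spread between accessions. Correlations used log2(FPKM + 1) within a collection, with 100000 resamples and adjustment over the family. The functions were tested on simulated data. Genes were named by rule: the 4 COL genes, the listed genes, and for each COL gene the 2 IDs most like it in both collections. Alternatives were another pseudocount (0.1), no filter or a filter at 5 FPKM, median-of-ratios scaling, quantile normalization, rank-sum tests, fits of only the classes compared, and leaving out libraries.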

Additional observations from a re-analysis of the deposited data

How the results depend on the processing

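The calls of COL1a and COL1b as higher in soyNAM parents and in elite lines than in milestone cultivars kept their sign and side of the threshold under every alternative run. Counts of genes called moved with the filter at 5 FPKM, where 16427 genes were tested in place of 30101. Called were 12573 between collections, against 22508 in the main fit, and 11596 between elite lines and milestone cultivars, against 20679. Between LG and elite lines, against 8 genes, 4 were called with a pseudocount of 0.1, 14 with no filter, 4 with median-of-ratios scaling, 3 with quantile normalization, 109 without the 5 libraries that stand apart, 54 without these, NAM29 and NAM48, and 0 by rank-sum test as in a fit restricted to both classes. For PI against elite lines, where 1037 were called, the counts were 3515 without the 5, 2491 without the 7, 290 in the restricted fit and 671 by rank-sum test. Signs turned for COL1a and COL1b between LG and elite lines, at -0.33 and -0.26 without the 5, -0.22 and -0.19 without the 7, -0.17 and -0.12 without Parent and NAM10, and -13.96 and -24.5 FPKM as differences of medians. Between PI and elite lines they were -0.70 and -0.47, -0.58 and -0.41, -0.42 and -0.21, and -33.6 and -49.6 FPKM under the same 4 alternatives. With no filter, COL2b between LG and elite lines was -0.15, but 0.0139 without the 5, 0.0202 without Parent and NAM10 and 0.0131 FPKM by medians. Between PI and elite lines COL2b was -0.06, but 0.10 with a pseudocount of 0.1, 0.0938 without the 5, 0.11 without Parent and NAM10 and 0.11 FPKM by medians, and COL2a was -0.13, but 0.000597 without Parent and NAM10. By Spearman coefficient, relations past the threshold among COL genes in soyNAM parents numbered 2. They numbered 1 without the 2 farthest libraries, without Parent and NAM10, without the 5 and without the 7. Within LG lines they numbered 1, and within PI lines 0. Relations with E2, FT2a and LHY2b by Spearman coefficient numbered 4 in soyNAM parents, 2 within LG and 0 within PI lines. In milestone cultivars they numbered 2, with 1 under quantile normalization and 1 without library 60. COL1a and COL1b with E2 turned to 0.47 and 0.45 without the 7 libraries. A further 41 correlations changed sign between values that both missed the threshold. The difference of COL2a over COL2b in elite lines was -0.0036, but 0.13 with a pseudocount of 0.1, 0.0278 without the 5 and 0.0384 without Parent and NAM10. Against milestone cultivars, the COL1a to COL1b log2 ratio was 0.0092 with a pseudocount of 0.1, 0.13 in elite lines and -0.20 in PI lines, and that of COL2a to COL2b -0.0371 in PI lines. Summed COL2 over summed COL1 differed by -0.54 (adjusted p = 0.0198), but by 0.27 with a pseudocount of 0.1 and by -0.24 in elite lines, so no direction is given for it. Causes of these changes were not tested beyond the fewer genes or libraries entered. No paired analysis was possible because each accession had 1 library and replicate numbers do not tie accessions of different groups. Depth is unknown, which limits what can be said of COL2a and COL2b near 0. Leaving out Parent and NAM10, each of them alone, library 60 or the 7 libraries for correlations, and the fits of COL2a and COL2b with no filter, were chosen after values had been seen.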
